A study of Homo sapiens with 18 samples.

Results

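The 33 genes described here are established targets of the transcription factor p53, followed in a colorectal cancer cell line whose p53 is mutant. They were chosen by gene symbol from what is known of p53 targets, by a rule that uses no measured value, but with earlier results of these data known. All 33 were among the 36204 gene names measured on the arrays. Expression was measured on 18 one-colour arrays, 3 for each of 6 groups. The groups were HT29, a human colorectal adenocarcinoma line, and HTOXAR3, a subline of HT29 selected by continuous growth in rising amounts of OXA (oxaliplatin), each left without drug, given OXA, or given OXA together with Curcumin for 24 h. OXA is a platinum drug that cross-links DNA, and Curcumin is a plant polyphenol. The OXA dose was 10 µM in HT29 and 30 µM in HTOXAR3, with 10 µM Curcumin in both lines, so that after treatment the lines differed in dose as well as in resistance and these cannot be told apart. The untreated cells were handled as vehicle controls, and Curcumin without OXA was not analysed here. The 3 arrays of a group were labelled as biological replicates, and HTOXAR3 is a single derived line.

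p53 binds DNA as a tetramer at response elements near its target genes and raises their transcription after DNA damage. Its targets stop the cell cycle, repair DNA, adjust metabolism and start cell death, and MDM2, itself a target, encodes the ubiquitin ligase that degrades p53. Many of these genes also have activators other than p53. The arrays measure RNA and cannot show the state of the p53 protein, so that the p53-mutant label rests on what is known of the line. In such bulk samples fewer cells of a type and less RNA per cell cannot be told apart.

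Values are log2 intensities after background correction and quantile normalization, and a difference of 1 is a 2-fold change. A gene was called at an adjusted p below 0.05 (Benjamini-Yekutieli, limma fit over all gene names) and a change above 1.2-fold, and "rose" and "fell" are used of called genes only. Of the 33 members, 30 were well above background on all 18 arrays and TP53INP1 on 17. EDA2R, a membrane receptor, and SPATA18, a mitophagy gene, were well above background on none, and neither was called in any comparison. Across the arrays 52.4% to 63.6% of transcript spots were well above background. Of 12 markers of colorectal epithelium 9 were detected on all arrays and the other 3 (CDX2, CEACAM5 and GPA33) on some, with a summed level of 19.49 to 19.75. Of 11 markers of fibroblasts, immune cells and endothelium 5 were detected on all arrays (PTPRC, CD79A, CD14, VWF and CDH5) and 2 (COL1A2 and COL3A1) on none, with a summed level of 11.74 to 12.55. Of the epithelial markers LGALS4 and VIL1 were lower in untreated HTOXAR3 (-2.08 and -1.61), beside 5.28% of all gene names. In the drug comparisons at most 3 of 12 were called in 1 direction, higher after both drugs in each line (9.56% and 8.82% of all gene names). On adding Curcumin in HTOXAR3 2 were higher (KRT20 and KRT19) and 2 lower (GPA33 and LGALS4), beside 4.43% and 4.41%. Of the other markers at most 1 of 11 was called in 1 direction, beside 2.39% to 9.56% of all gene names in the comparisons of groups. COL1A1 was higher after OXA in HT29, at least 1.99-fold, and CD14 was lower after OXA in both lines and after both drugs in HTOXAR3. The part of other cells in the results was not tested.

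The p53 targets did not move as 1 block in either line. After OXA, 8 of 33 rose and 4 fell in HT29, against 8.33% and 7.62% of all gene names. In HTOXAR3, OXA raised 7 and lowered 4, against 5.31% and 4.94% of all gene names. Of the gene names detected on all arrays of at least 1 group, which hold 31 of the 33, 13.7% rose and 12.5% fell in HT29, and 8.73% and 8.12% in HTOXAR3. With other processing 9 to 11 members rose in HTOXAR3. They were 9 with an offset of 50 in the background correction (6.27% of all gene names), 10 with the intensity processed by the scanner software (5.94%), 10 in a fit on the detected names only (11% of those) and 11 with the Benjamini-Hochberg adjustment (8.4%). In HT29 the same settings gave 8 (8.94% of all gene names), 6 (8.42%), 8 (15.6% of the detected names) and 8 (11.2%). The order of the lines in this count depends on the processing, and under each setting a smaller share of gene names rose in HTOXAR3 than in HT29. PLK3 and DRAM1 were called higher in HTOXAR3 in each of the 4. The median difference of the 33 was 0.04 in HT29 and 0.18 in HTOXAR3, beside -0.01 and 0.01 over all gene names. Of the genes that rose, 6 were shared by the lines (GDF15, NINJ1, PERP, PLK2, PRKAB1 and TP53I3), 75% of the HT29 list and 85.7% of the HTOXAR3 list. The 2 shared genes that fell were CCNG1 and PHLDA3, 50% of each list.

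On adding Curcumin to OXA the largest rise among the members was that of CDKN1A in both lines. Compared with OXA alone, 6 members rose and 0 fell in HT29, where the unadjusted p was under 0.05 for 14 of 33 (22.2% of all gene names), and 3.14% of all gene names rose and 2.39% fell. In HTOXAR3, 6 rose and 2 fell, with 4.43% and 4.41% of all gene names called. Of the detected names 5.16% rose and 3.95% fell in HT29, and 7.26% and 7.28% in HTOXAR3. The 6 that rose were the same genes in both lines, CDKN1A, GADD45A, PHLDA3, PLK3, SFN and IER5, 100% of each list, on arrays that the comparisons do not share. The identity of the lists depends on SFN and IER5 in HT29. Both calls were lost there with the processed intensity (adjusted p = 0.107 for SFN and 0.0541 for IER5), with the replicate number as a block (0.0531 and 0.0586), with the slide as a block (0.0878 and 0.0863) and without the slide of 2 arrays, which holds the first untreated and first OXA arrays of HT29 (0.239 and 0.221). Under each of these 4 rose in HT29 and 6 in HTOXAR3. Of all gene names 2.97%, 2.94%, 2.65% and 2.02% rose in HT29 in turn, and 4.73%, 4.31%, 4.54% and 4.14% in HTOXAR3. The median of the 33 was 0.02 in HT29 and 0.05 in HTOXAR3, beside -0.02 over all gene names in each.

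After OXA plus Curcumin 13 members rose over untreated cells and 3 fell in HT29, against 9.56% and 9.02% of all gene names. In HTOXAR3, 13 rose and 6 fell, against 8.82% and 8.64%. Of the 13 that rose, 10 were shared (76.9% of each list), and the 3 that fell in HT29 (ASCC3, CCNG1 and TRIAP1) were 50% of those that fell in HTOXAR3. Among the 21872 detected names 15.7% rose and 14.8% fell in HT29, and 14.5% and 14.1% in HTOXAR3. The comparisons within a line share arrays and are not independent of each other.

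**Figure D1:**
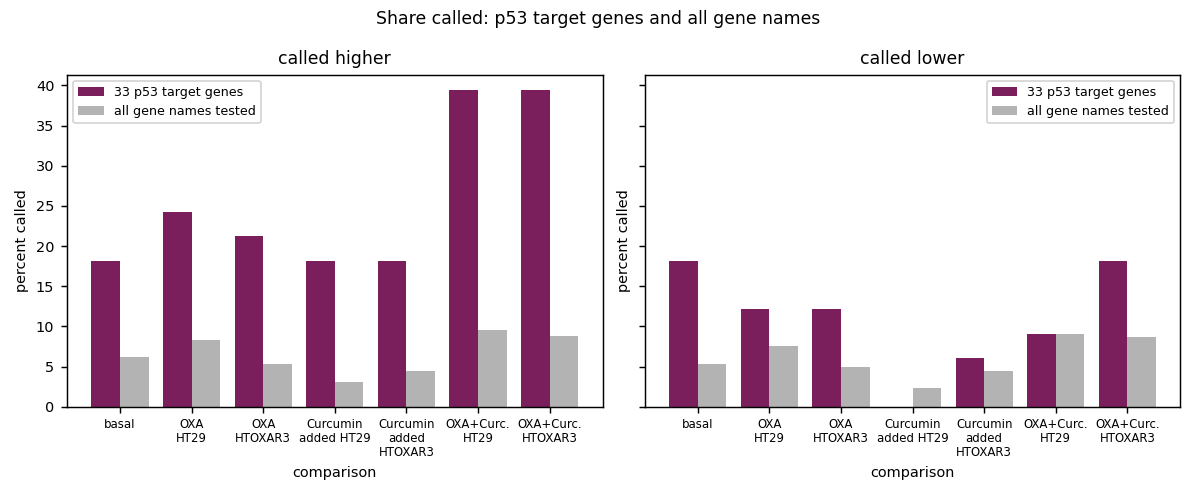
Percent of the 33 members (bars by comparison) called higher and called lower, beside the percent of all gene names called in the same direction. After OXA plus Curcumin 39.4% of members were called higher in each line, beside 9.56% and 8.82% of all gene names.

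Between the untreated lines 6 members were higher and 6 lower in HTOXAR3, where 6.26% of all gene names were higher and 5.28% lower, and 10.3% and 8.69% of the detected names. The median of the 33 was -0.05, beside -0.03 over all gene names. The test of whether OXA acted differently in the lines called 2 members, GADD45A and PLK3, with 0.608% of all gene names higher and 0.398% lower in HTOXAR3. The same test for OXA plus Curcumin called 0 members by limma with the Benjamini-Yekutieli adjustment, while 13 of 33 had an unadjusted p under 0.05, beside 14.4% of all gene names, and 7 passed with the Benjamini-Hochberg adjustment, beside 3.44%. In that test 0.32% of all gene names were called higher and 0.536% lower. These counts rest on a spread shared by all 18 arrays. Fitted on the 6 arrays of each comparison alone, which leaves few degrees of freedom, the calls dropped to 4 between the lines, 3 and 3 after OXA, 1 and 1 on adding Curcumin, and 3 and 11 after both drugs, in HT29 and HTOXAR3 in turn. Of all gene names the same fits called 3.47% between the lines, 3.7% and 1.64% after OXA, 0.0442% and 0.616% on adding Curcumin, and 5.68% and 8.32% after both drugs.

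**Figure D2:**
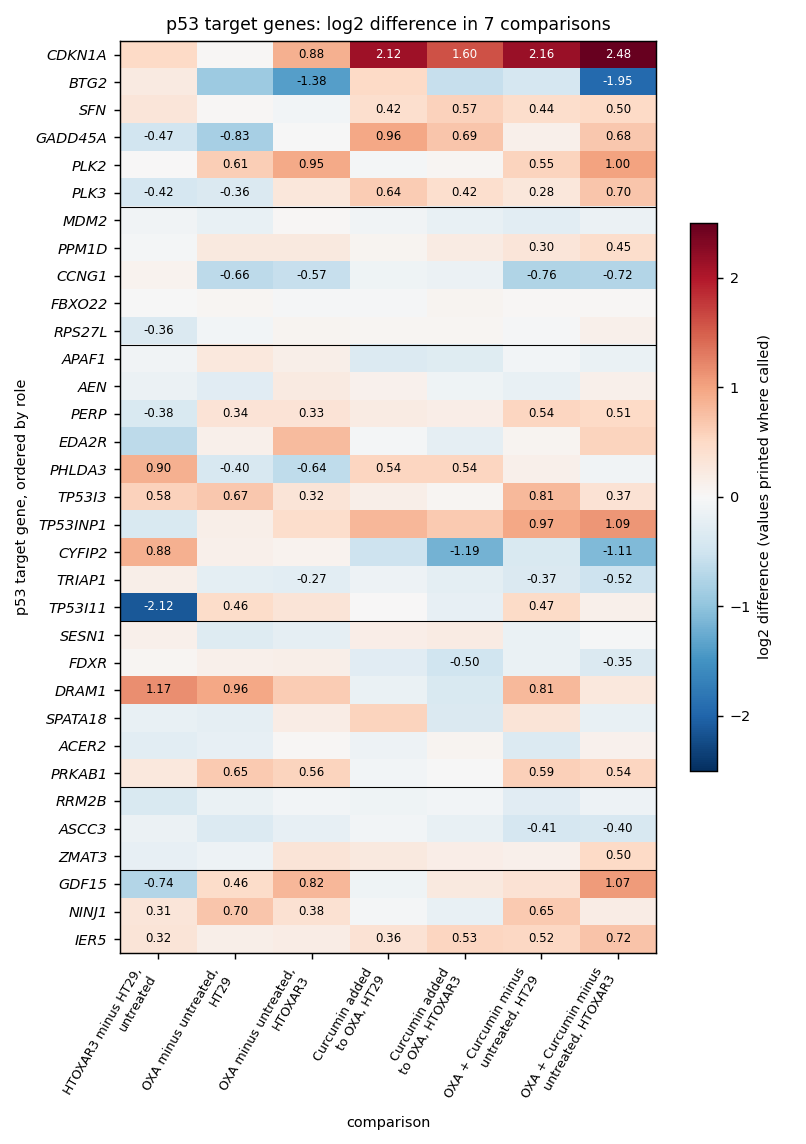
Log2 differences of the 33 members (vertical, grouped by role) in the 7 comparisons of groups (horizontal), from blue (lower) to red (higher), with the value printed where it was called. EDA2R and SPATA18 were not well above background. CDKN1A has the largest rises and TP53I11 the lowest value between the untreated lines, -2.12.

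Of the 6 members that arrest the cell cycle, CDKN1A, which encodes the cyclin-dependent kinase inhibitor p21, rose on adding Curcumin in both lines. Its level in HT29 was 5.32, 4.95 and 5.47 without drug, 5.40, 5.22 and 5.23 with OXA and 7.35, 7.57 and 7.29 with OXA plus Curcumin. In HTOXAR3 it was 5.72, 5.59 and 5.92 without drug, 6.69, 6.73 and 6.46 with OXA and 8.15, 8.14 and 8.38 with both drugs. The HT29 arrays with OXA lay within the range of the untreated ones, whereas every other step up in these groups was free of overlap. For OXA alone the difference in HT29 was 0.04, with a 95% interval of -0.25 to 0.33 that takes in 0. In HTOXAR3 it rose by 0.88 (SE 0.14, adjusted p = 0.00352), or 1.85-fold. The difference between these responses, 0.85 (SE 0.19), did not pass the test (adjusted p = 0.31), but passed with the less strict Benjamini-Hochberg adjustment (adjusted p = 0.028). Adding Curcumin raised it 4.34-fold in HT29 (2.12, SE 0.14, adjusted p = 4.56e-06) and 3.02-fold in HTOXAR3 (1.60, SE 0.14, adjusted p = 3.16e-05). Against untreated cells the drugs together raised it 4.46-fold in HT29 (adjusted p = 3.67e-07) and 5.58-fold in HTOXAR3 (adjusted p = 1.44e-07). Between the untreated lines the difference of 0.50 was not called (adjusted p = 0.192), and passed with Benjamini-Hochberg (adjusted p = 0.0174). The size of these changes depended on the background correction. With an offset of 50 the rise on adding Curcumin was 1.30 in HT29 and 1.23 in HTOXAR3, and that after OXA in HTOXAR3 was 0.52, all still called.

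**Figure D3:**
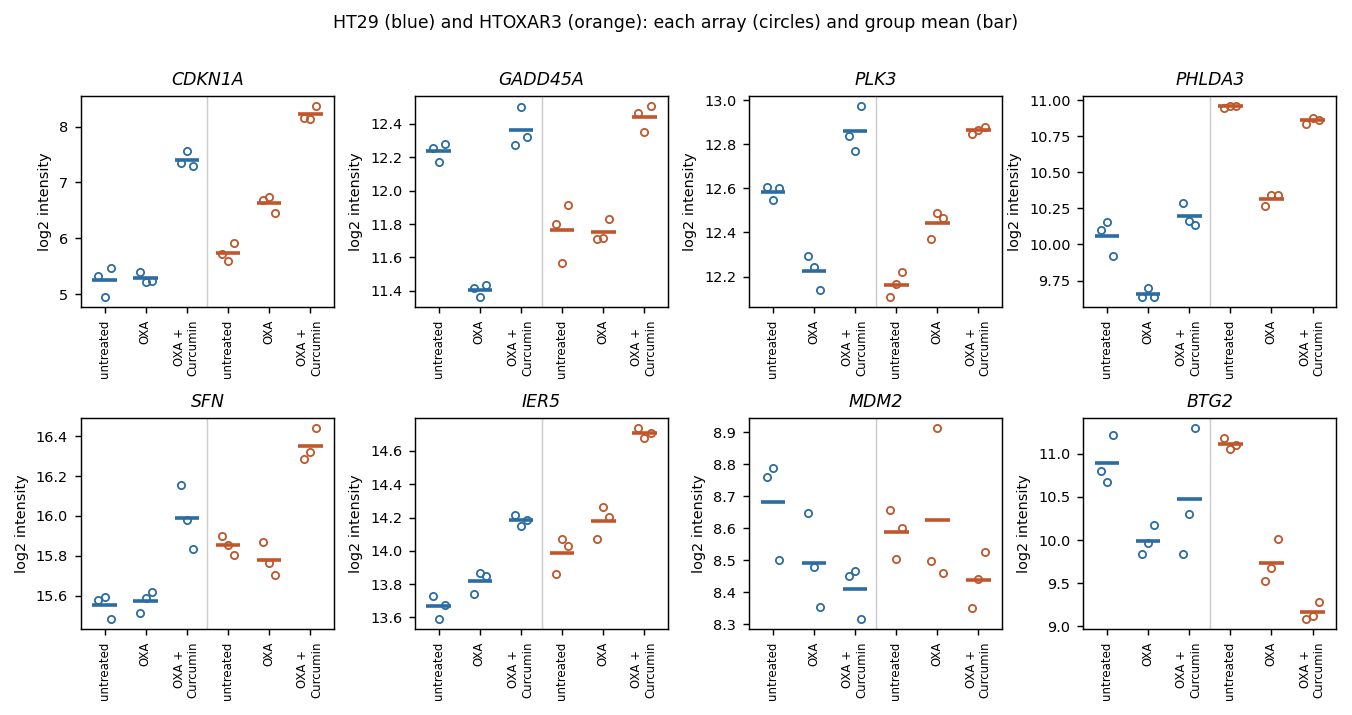
Log2 intensity (vertical) of the 6 members that rose on adding Curcumin in both lines, and of MDM2 and BTG2, on each array. Circles are arrays (HT29 blue and HTOXAR3 orange) with the group mean as a bar, by treatment (horizontal). MDM2 and BTG2 were not called on adding Curcumin. CYFIP2 and FDXR, which fell on adding Curcumin in HTOXAR3, are not shown. In HTOXAR3 the CDKN1A arrays step from 5.72, 5.59 and 5.92 without drug to 6.69, 6.73 and 6.46 with OXA and 8.15, 8.14 and 8.38 with both drugs.

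The promoters of 5 members that rose, 250 bases before the RefSeq transcript start in GRCh38.p14, are shown because these genes rose with OXA or on adding Curcumin. Capitals mark matches on either strand to 6 motifs. These were the p53 half-site, the full p53 site of a pair of half-sites at most 13 bases apart, the GC box GGGCGG, the cyclic AMP response element core TGACG, the AP-1 site in the form TGANTCA and the TATA box in the form TATAAA. CDKN1A lies at chr6:36678464-36678713 (plus strand), SFN at chr1:26862899-26863148 (plus strand), PLK2 at chr5:58460087-58460336 (minus strand), PLK3 at chr1:44800127-44800376 (plus strand) and IER5 at chr1:181088450-181088699 (plus strand), each read 5′ to 3′ along the gene's own strand.
CDKN1A: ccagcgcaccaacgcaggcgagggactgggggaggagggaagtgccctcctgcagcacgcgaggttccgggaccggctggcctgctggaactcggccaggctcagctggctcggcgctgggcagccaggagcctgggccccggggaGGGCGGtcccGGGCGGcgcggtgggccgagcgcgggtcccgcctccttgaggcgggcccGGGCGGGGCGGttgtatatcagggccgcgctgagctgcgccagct
SFN: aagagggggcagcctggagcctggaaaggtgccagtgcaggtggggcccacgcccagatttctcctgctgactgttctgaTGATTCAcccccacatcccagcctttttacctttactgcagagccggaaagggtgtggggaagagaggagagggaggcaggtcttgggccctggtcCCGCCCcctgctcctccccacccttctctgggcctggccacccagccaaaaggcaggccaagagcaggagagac
PLK2: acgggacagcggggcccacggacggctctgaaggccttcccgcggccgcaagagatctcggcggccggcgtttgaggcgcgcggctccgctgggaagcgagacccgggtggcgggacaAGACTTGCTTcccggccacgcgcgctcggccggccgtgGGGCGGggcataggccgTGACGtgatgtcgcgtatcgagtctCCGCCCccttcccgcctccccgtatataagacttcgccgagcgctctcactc
PLK3: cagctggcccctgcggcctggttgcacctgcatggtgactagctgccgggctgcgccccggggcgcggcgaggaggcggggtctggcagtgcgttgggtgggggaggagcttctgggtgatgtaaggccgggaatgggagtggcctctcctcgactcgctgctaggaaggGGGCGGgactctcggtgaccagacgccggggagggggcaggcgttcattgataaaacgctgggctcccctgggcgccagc
IER5: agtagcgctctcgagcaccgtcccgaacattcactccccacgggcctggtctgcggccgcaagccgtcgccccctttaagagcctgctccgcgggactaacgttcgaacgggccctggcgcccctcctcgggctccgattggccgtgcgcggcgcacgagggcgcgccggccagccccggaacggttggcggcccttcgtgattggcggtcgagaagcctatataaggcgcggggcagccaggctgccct
CDKN1A holds 4 GC boxes, of which the last pair overlap. SFN holds 1 GC box and 1 AP-1 match, PLK3 holds 1 GC box, and IER5 holds none of the 6 motifs. PLK2 holds 1 p53 half-site, at -132 to -123 from the start, with 2 GC boxes and 1 TGACG match. Among 27303 promoters of the same length, 42.3% hold a GC box, 21.7% TGACG, 11.1% TATAAA, 6.6% the AP-1 form, 5.53% a p53 half-site and 0.0293% a full site. Of the 27 members in the table, 22 hold a GC box, 3 TGACG, 1 TATAAA, 2 the AP-1 form and 4 a half-site (PLK2, RPS27L, AEN and FDXR), and 0 hold a full site. These matches describe the letters of a short window, and known response elements of p53 targets often lie outside it.

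GADD45A encodes a stress protein that inhibits the G2/M kinase CDK1, and it read 12.25, 12.17 and 12.28 in untreated HT29, 11.42, 11.36 and 11.43 with OXA and 12.27, 12.50 and 12.32 with both drugs. In HTOXAR3 it read 11.80, 11.57 and 11.92 untreated, 11.71, 11.72 and 11.83 with OXA and 12.46, 12.35 and 12.51 with both drugs. With OXA the HT29 arrays lay below every untreated array and the HTOXAR3 arrays within the untreated range, and with both drugs the HTOXAR3 arrays lay above every untreated one. It fell by 0.83 after OXA in HT29 (adjusted p = 6.26e-05), while HTOXAR3 gave -0.01. This difference between the lines, 0.82 (SE 0.12), passed the test (adjusted p = 0.0192), though not with the slide as a block (0.80, adjusted p = 0.0503). Adding Curcumin raised GADD45A by 0.96 (SE 0.09, adjusted p = 9.16e-05) in HT29 and by 0.69 (SE 0.09, adjusted p = 0.000925) in HTOXAR3. Against untreated cells, both drugs gave 0.13 in HT29, not called, and a rise of 0.68 in HTOXAR3.

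PLK3, a stress-responsive polo-like kinase, also fell with OXA in HT29 and rose on adding Curcumin in both lines. It read 12.60, 12.55 and 12.60 in untreated HT29, 12.29, 12.24 and 12.14 with OXA and 12.84, 12.77 and 12.97 with both drugs, and in HTOXAR3 12.11, 12.16 and 12.22 untreated, 12.37, 12.49 and 12.47 with OXA and 12.85, 12.86 and 12.88 with both drugs. It fell by 0.36 after OXA in HT29 (adjusted p = 0.00752), and HTOXAR3 gave 0.28 (adjusted p = 0.0737), with no overlap between groups in either line. The lines differed in this response by 0.64 (SE 0.09, adjusted p = 0.0127). Curcumin added to OXA raised it by 0.64 in HT29 and 0.42 in HTOXAR3, and both drugs raised it over untreated cells by 0.28 and 0.70. The call of 0.28 was lost without any 1 of 5 arrays, all but the second HT29 array with both drugs (adjusted p 0.11 to 0.245), with the processed intensity (0.193), with the replicate number as a block (0.0691) and without the slide of 2 arrays (0.12). The difference between the lines in the OXA response was lost for PLK3 without the first untreated array of either line or the second or the third HTOXAR3 array with OXA (adjusted p 0.0511 to 0.0543), and for GADD45A without any of 9 of 12 arrays (adjusted p 0.0513 to 0.0765), all but the second untreated HT29 array and the second and the third untreated HTOXAR3 arrays. Without the slide of 2 arrays neither passed (adjusted p = 0.161 for GADD45A and 0.0656 for PLK3).

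PLK2, a related kinase that acts in centriole duplication, rose with OXA in both lines and was not called on adding Curcumin. In HT29 it read 12.59, 12.43 and 12.56 untreated, 13.22, 13.09 and 13.10 with OXA and 13.11, 13.02 and 13.13 with both drugs. The HTOXAR3 arrays read 12.50, 12.54 and 12.56 untreated, 13.52, 13.48 and 13.44 with OXA and 13.57, 13.43 and 13.61 with both drugs. Every treated array lay above every untreated one in both lines. The rise after OXA was 0.61 (SE 0.07, adjusted p = 8.2e-05) in HT29 and 0.95 (SE 0.07, adjusted p = 4e-06) in HTOXAR3. Both drugs together raised it by 0.55 in HT29 and 1.00 in HTOXAR3, and adding Curcumin gave -0.05 and 0.06, not called.

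SFN encodes 14-3-3 sigma, which holds cell cycle kinases in the cytoplasm. Its level in HT29 was 15.58, 15.59 and 15.48 untreated, 15.51, 15.59 and 15.62 with OXA and 16.16, 15.98 and 15.83 with both drugs, and in HTOXAR3 15.90, 15.85 and 15.80 untreated, 15.87, 15.76 and 15.71 with OXA and 16.29, 16.32 and 16.44 with both drugs. OXA alone gave differences of 0.02 and -0.07, and Curcumin added to OXA raised it by 0.42 (SE 0.08, adjusted p = 0.0336) and 0.57 (SE 0.08, adjusted p = 0.00203), with no overlap in either line. Against untreated cells it rose by 0.44 and 0.50, the HT29 call being lost with the processed intensity (0.30, adjusted p = 0.313). The HT29 call on adding Curcumin was lost without any 1 of 5 arrays, all but the third with both drugs (adjusted p 0.091 to 0.164).

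BTG2, an antiproliferative gene, fell. In HTOXAR3 it read 11.18, 11.05 and 11.10 untreated, 9.52, 9.68 and 10.01 with OXA and 9.09, 9.12 and 9.28 with both drugs, each group below the one before. It fell by 1.38 with OXA (adjusted p = 0.026) and by 1.95, or 3.87-fold, with both drugs (adjusted p = 0.000825). In HT29 it read 10.80, 10.67 and 11.22 untreated, 9.83, 9.97 and 10.18 with OXA and 9.84, 10.30 and 11.30 with both drugs. The difference of -0.90 after OXA was not called (adjusted p = 0.279) although the groups did not overlap. With both drugs the HT29 arrays ran from below to above the untreated range, the third reading highest. The call after OXA in HTOXAR3 was lost without any 1 of 5 arrays, all but the third with OXA (adjusted p 0.0906 to 0.146), and without the slide of 2 arrays (adjusted p = 0.059).

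Of the genes that feed back on p53, MDM2 read 8.76, 8.79 and 8.50 in untreated HT29, 8.65, 8.48 and 8.35 with OXA and 8.45, 8.47 and 8.32 with both drugs, and in HTOXAR3 8.66, 8.50 and 8.60 untreated, 8.50, 8.92 and 8.46 with OXA and 8.35, 8.44 and 8.53 with both drugs. It was called in no comparison. Its difference was -0.10 between the untreated lines. After OXA it was -0.19 in HT29 and 0.04 in HTOXAR3, and on adding Curcumin -0.08 and -0.18. After both drugs it was -0.27 and -0.15, each with an SE of 0.12, and the lines' responses differed by 0.23 and 0.13. The 95% interval after OXA, -0.45 to 0.07 in HT29 and -0.22 to 0.30 in HTOXAR3, stays below a difference of 1, which is a 2-fold rise. The probe used lies at chr12:69233570-69233629 of GRCh37, and the array has 3 others for MDM2, which gave -0.52, -0.33 and -0.93 after OXA in HT29. Averaged over its 4 probes MDM2 was called lower in HT29, with -0.49 after OXA (adjusted p = 0.000343) and -0.46 after both drugs (adjusted p = 0.000513). None of the MDM2 probes read higher after OXA in HT29. MDM4, a relative of MDM2 that inhibits p53, fell by 0.53 after both drugs in HTOXAR3 (adjusted p = 0.0123) and was called nowhere else.

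CCNG1, cyclin G1, which with a phosphatase activates MDM2, fell after OXA in both lines. It read 11.78, 11.81 and 11.95 in untreated HT29 and 11.00, 11.25 and 11.32 with OXA, and in HTOXAR3 11.87, 11.89 and 12.03 untreated and 11.31, 11.41 and 11.35 with OXA. The groups did not overlap, and it fell by 0.66 (adjusted p = 0.000267) and 0.57 (adjusted p = 0.00173). With both drugs it fell by 0.76 in HT29 and 0.72 in HTOXAR3. PPM1D, the phosphatase WIP1 that turns off the DNA damage response, rose after both drugs by 0.30 in HT29 and 0.45 in HTOXAR3. Its second probe gave 0.12 in each, and with the 2 probes averaged neither was called (0.21, adjusted p = 0.36 in HT29 and 0.28, adjusted p = 0.0669 in HTOXAR3). With the brighter probe the HT29 call was lost without the third untreated array or the first or second array with both drugs (adjusted p 0.0664 to 0.0828). RPS27L, a ribosomal protein relative that binds MDM2, was lower in untreated HTOXAR3, with a difference of -0.36, and ranged from -0.08 to 0.12 in the drug comparisons. FBXO22, a ubiquitin ligase subunit, was called nowhere.

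Among the 10 genes of cell death and survival, PERP, a desmosome protein that takes part in apoptosis, and TP53I3, a quinone oxidoreductase, rose with OXA in both lines. PERP read 14.21, 14.27 and 14.19 in untreated HT29, 14.59, 14.54 and 14.55 with OXA and 14.78, 14.71 and 14.81 with both drugs, and in HTOXAR3 13.86, 13.88 and 13.78 untreated, 14.18, 14.22 and 14.12 with OXA and 14.34, 14.32 and 14.39 with both drugs. It rose by 0.34 (SE 0.05, adjusted p = 0.00232) and 0.33 (SE 0.05, adjusted p = 0.0043) after OXA, and by 0.54 and 0.51 after both drugs. The HT29 call after OXA was lost with the processed intensity (0.23, adjusted p = 0.0914) and without the slide of 2 arrays (0.31, adjusted p = 0.0574). All groups of a line were free of overlap. TP53I3 read 11.58, 11.59 and 11.54 in untreated HT29, 12.17, 12.22 and 12.33 with OXA and 12.34, 12.35 and 12.45 with both drugs. In HTOXAR3 it read 12.12, 12.17 and 12.15 untreated, 12.39, 12.54 and 12.46 with OXA and 12.47, 12.60 and 12.48 with both drugs, the last 2 groups overlapping. It rose by 0.67 in HT29 (adjusted p = 1.67e-05) and 0.32 in HTOXAR3 (adjusted p = 0.0202) after OXA, and by 0.81 and 0.37 after both drugs. The OXA call in HTOXAR3 was lost without any 1 of 5 arrays, all but the first with OXA (adjusted p 0.0688 to 0.132).

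PHLDA3, an inhibitor of the survival kinase AKT, fell with OXA and was higher again when Curcumin was added. It read 10.10, 10.15 and 9.92 in untreated HT29, 9.64, 9.70 and 9.64 with OXA and 10.28, 10.16 and 10.13 with both drugs. In HTOXAR3 it read 10.95, 10.96 and 10.96 untreated, 10.26, 10.35 and 10.34 with OXA and 10.83, 10.88 and 10.87 with both drugs. After OXA it fell by 0.40 in HT29 (adjusted p = 0.00258) and 0.64 in HTOXAR3 (adjusted p = 8.42e-05), the HT29 call being lost without the slide of 2 arrays (-0.37, adjusted p = 0.0654), and adding Curcumin raised it by 0.54 in each line (adjusted p = 0.00081 and 0.00048). Against untreated cells the drugs together left 0.14 and -0.10, neither called.

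TP53INP1, an autophagy and apoptosis regulator, rose after both drugs. Without drug it read 5.46, 5.16 and 6.19 in HT29 and 5.22, 5.01 and 5.43 in HTOXAR3. With both drugs it read 6.63, 6.51 and 6.59 in HT29 and 6.41, 6.26 and 6.28 in HTOXAR3, all above the untreated arrays of the same line. The rises were 0.97 (SE 0.22, adjusted p = 0.0429) and 1.09 (SE 0.22, adjusted p = 0.0193). Each was lost without any 1 of 5 arrays, all but the third untreated array (adjusted p 0.12 to 0.241 in HT29 and 0.0637 to 0.115 in HTOXAR3). The HT29 call was also lost with the slide as a block (0.90, adjusted p = 0.0632) and without the slide of 2 arrays (0.90, adjusted p = 0.182), and the HTOXAR3 call with the probes of a gene averaged (0.86, adjusted p = 0.206). With an offset of 50 in the background correction the rises were 0.54 and 0.57, both called. The average takes in a second probe that was well above background on only 3 of 18 arrays. CYFIP2, a regulator of actin assembly, fell in HTOXAR3 from 7.78, 7.82 and 7.81 with OXA to 6.61, 6.91 and 6.33 with both drugs, by 1.19 (adjusted p = 0.00168), and by 1.11 against untreated cells. Its second probe gave -0.52 and -0.27, and with the probes averaged the fall against untreated cells was -0.69, still called. In HT29, with the probe used, CYFIP2 gave -0.52 on adding Curcumin, not called (adjusted p = 0.586), though the groups did not overlap. TRIAP1, an inhibitor of apoptosis, fell by 0.37 in HT29 and 0.52 in HTOXAR3 after both drugs and by 0.27 after OXA in HTOXAR3. That last call was lost without any 1 of 5 arrays, all but the second untreated one (adjusted p 0.0611 to 0.0956), and with the processed intensity (adjusted p = 0.14). APAF1, the core of the apoptosome, ranged from -0.34 to 0.27 and the nuclease AEN from -0.28 to 0.23 over the 7 comparisons of groups, with no call.

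TP53I11, whose product is a membrane protein, was lower in untreated HTOXAR3. It read 9.24, 9.19 and 9.42 in untreated HT29 and 7.18, 7.30 and 7.01 in untreated HTOXAR3, a difference of -2.12 or 4.34-fold (adjusted p = 5.46e-09), and the second probe gave -1.70. After OXA it rose in HT29 to 9.72, 9.73 and 9.77, by 0.46, and with both drugs by 0.47. The second probe gave -0.08 after OXA and 0.33 after both drugs, so that the OXA rise rests on 1 probe. With the probes averaged it was 0.19, not called (adjusted p = 1). It was also lost without the slide of 2 arrays (adjusted p = 0.151) and without the first or second untreated array or the third with OXA (adjusted p 0.0593 to 0.0782), and the rise with both drugs was lost without the second untreated array (adjusted p = 0.0528) or the slide of 2 arrays (0.0643).

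Of the 6 genes of metabolism, antioxidant defence and autophagy, PRKAB1, a subunit of the energy sensor AMPK, rose with OXA in both lines. It read 8.84, 8.87 and 9.00 in untreated HT29 and 9.43, 9.59 and 9.64 with OXA, and in HTOXAR3 9.10, 9.12 and 9.29 untreated and 9.62, 9.89 and 9.68 with OXA, with no overlap. The rises were 0.65 (SE 0.09, adjusted p = 0.000565) and 0.56 (SE 0.09, adjusted p = 0.00407), and after both drugs 0.59 and 0.54. DRAM1, a lysosomal autophagy regulator, read 9.11, 9.19 and 9.24 in untreated HT29, 10.21, 10.12 and 10.10 with OXA and 9.68, 9.81 and 10.46 with both drugs. It rose by 0.96 (SE 0.14, adjusted p = 0.00152) after OXA and 0.81 after both drugs in HT29, the latter lost without the slide of 2 arrays (adjusted p = 0.0525). In HTOXAR3, where it read 10.33, 10.45 and 10.26 untreated and 11.01, 10.96 and 10.98 with OXA, the OXA difference of 0.64 narrowly missed (adjusted p = 0.0592), both drugs gave 0.26, not called, and the lines' responses were not shown to differ (-0.32, SE 0.20). FDXR, a mitochondrial electron carrier, fell in HTOXAR3 by 0.50 on adding Curcumin (adjusted p = 0.00125) and by 0.35 after both drugs, the latter lost without the first or the third array with both drugs (adjusted p 0.0517 to 0.064). In HT29 adding Curcumin gave -0.28 for FDXR without overlap, not called (adjusted p = 0.128). That difference passed with the Benjamini-Hochberg adjustment (adjusted p = 0.0115). SESN1, an antioxidant sestrin, ranged from -0.32 to 0.20 and the ceramidase ACER2 from -0.34 to 0.11, neither called.

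Of the 3 genes of DNA and RNA maintenance ASCC3 and ZMAT3 were called. ASCC3, a helicase used in alkylation repair, fell after both drugs by 0.41 in HT29 and 0.40 in HTOXAR3. After OXA in HT29 it gave -0.35, not called (adjusted p = 0.101), and was called with the replicate number as a block (adjusted p = 0.0274), in a comparison where the numbers were taken to pair the arrays. The HT29 call after both drugs was lost without 4 arrays in turn, the first and second untreated and the second and the third with both drugs (adjusted p 0.0981 to 0.174), and the HTOXAR3 call without any of the 6 (adjusted p 0.0778 to 0.248). Without the slide of 2 arrays neither was called (adjusted p = 0.0949 and 0.061), nor was that of HTOXAR3 with the processed intensity (0.0663). ZMAT3, an RNA-binding splicing regulator, rose in HTOXAR3 after both drugs from 6.04, 6.06 and 6.03 to 6.59, 6.56 and 6.49, by 0.50 (SE 0.08, adjusted p = 0.00286). With an offset of 50 the rise was 0.31, still called. RRM2B, the ribonucleotide reductase subunit induced by p53, ranged from -0.39 to -0.06 with no call.

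Of the 3 remaining genes, GDF15, a secreted stress cytokine, read 15.75, 15.80 and 16.07 in untreated HT29, 16.35, 16.28 and 16.36 with OXA and 16.01, 16.24 and 16.43 with both drugs. In HTOXAR3 it read 15.08, 15.10 and 15.22 untreated, 15.94, 15.98 and 15.96 with OXA and 16.19, 16.11 and 16.31 with both drugs. OXA raised it by 0.46 in HT29 (adjusted p = 0.0452) and 0.82 in HTOXAR3 (adjusted p = 0.000706), and both drugs raised it by 1.07 in HTOXAR3, where every treated array lay above the untreated ones. In HT29 both drugs gave 0.36, not called (adjusted p = 0.204), and the groups overlapped. The HT29 call after OXA was lost without any 1 of 5 arrays, all but the third untreated one (adjusted p 0.11 to 0.261). It was also lost with the processed intensity (0.29, adjusted p = 0.876) and without the slide of 2 arrays (0.39, adjusted p = 0.614). NINJ1, a membrane protein that ruptures the plasma membrane of dying cells, read 13.72, 13.68 and 13.58 in untreated HT29 and 14.43, 14.36 and 14.30 with OXA. The HTOXAR3 arrays read 13.96, 13.98 and 13.95 untreated and 14.33, 14.35 and 14.36 with OXA, with no overlap in either line. It rose by 0.70 (SE 0.06, adjusted p = 8.65e-06) and 0.38 (SE 0.06, adjusted p = 0.00457), and by 0.65 with both drugs in HT29, while both drugs gave 0.18 in HTOXAR3, not called. IER5, an immediate early gene that activates heat shock factor, rose on adding Curcumin from 13.74, 13.87 and 13.85 to 14.22, 14.15 and 14.18 in HT29 and from 14.07, 14.27 and 14.20 to 14.74, 14.68 and 14.71 in HTOXAR3. These rises were 0.36 (SE 0.07, adjusted p = 0.0354) and 0.53 (SE 0.07, adjusted p = 0.00134), and 0.52 and 0.72 against untreated cells. The HT29 call on adding Curcumin was lost without any of the 6 arrays (adjusted p 0.0907 to 0.181).

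**Figure D4:**
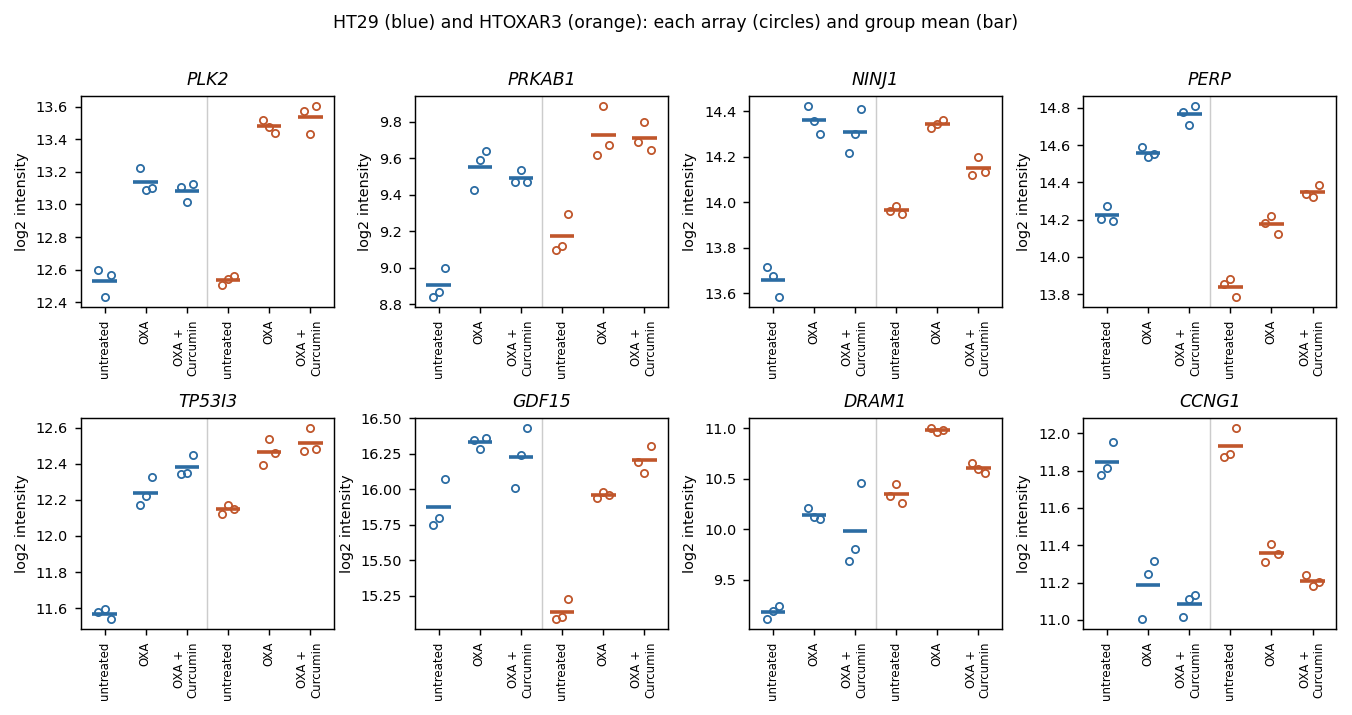
Log2 intensity (vertical) of 8 members called after OXA on each array (circles, HT29 blue and HTOXAR3 orange) with the group mean as a bar, by treatment (horizontal). PLK2 steps up in both lines, to between 13.09 and 13.22 in HT29 and between 13.44 and 13.52 in HTOXAR3 with OXA, while CCNG1 steps down.

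Before any drug, HTOXAR3 had more transcript than HT29 of DRAM1 (1.17), PHLDA3 (0.90), CYFIP2 (0.88), TP53I3 (0.58), IER5 (0.32) and NINJ1 (0.31) on the log2 scale. It had less of TP53I11 (-2.12), GDF15 (-0.74), GADD45A (-0.47), PLK3 (-0.42), PERP (-0.38) and RPS27L (-0.36). DRAM1 was the highest of these at 2.25-fold (SE 0.14 on the log2 scale, adjusted p = 0.000363). The second CYFIP2 probe gave 1.02. Leaving out 1 array lost the calls of CYFIP2 (without any but the third HT29 array, adjusted p 0.0553 to 0.0813), NINJ1 (any but the first HT29 array, 0.0708 to 0.116), IER5 (any but the first HTOXAR3 array, 0.0748 to 0.274) and GADD45A (the first or the third HT29 or second HTOXAR3 array, 0.0583 to 0.0666). Without the slide of 2 arrays GADD45A (adjusted p = 0.0899), CYFIP2 (0.108) and IER5 (0.0748) were not called, nor was IER5 with the replicate number (0.0702) or the slide (0.0984) as a block.

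**Figure D5:**
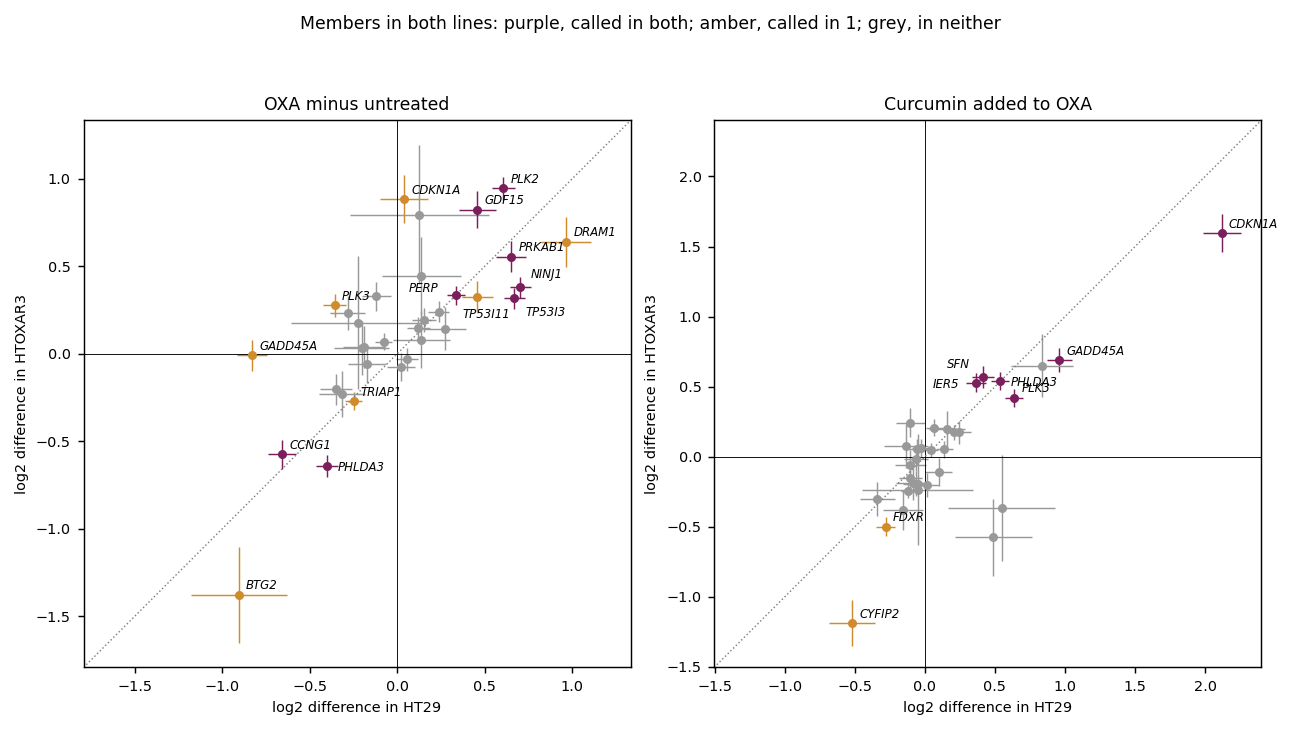
Log2 difference of each member in HTOXAR3 (vertical) against HT29 (horizontal) after OXA (left) and on adding Curcumin to OXA (right), with bars of 1 SE and the line of equal change dotted. GADD45A and PLK3, for which the lines' OXA responses differed by the test, lie above that line after OXA, and the 6 genes called in both lines on adding Curcumin lie in the upper right of that panel.

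Other genes around p53 give the setting. Of 18 p53 family members and regulators 3 rose and 3 fell after OXA in HT29 (8.33% and 7.62% of all gene names), and 1 rose and 2 fell in HTOXAR3 (5.31% and 4.94%). USP7, the deubiquitinase that stabilises MDM2 and p53, fell in both (-0.85 and -0.80), as did the checkpoint kinase ATR (-0.34 and -0.39), and PPP1R13L, the p53 inhibitor iASPP, rose (0.59 and 0.48). TP53BP1, a DNA break adaptor, rose by 0.31 in HT29. Adding Curcumin changed 0 of 18 in HT29 by limma, with 7 at an unadjusted p under 0.05 (22.2% of all gene names), and in HTOXAR3 0 rose and 2 fell (4.43% and 4.41%), the acetyltransferase CREBBP (-0.45) and the kinase CHEK1 (-0.31). After both drugs 3 rose and 3 fell in HT29 (9.56% and 9.02%) and 3 rose and 4 fell in HTOXAR3 (8.82% and 8.64%), among them HIPK2, a kinase that phosphorylates p53 (0.73 and 1.40). USP7 (-0.74 and -0.78) and ATR (-0.50 and -0.64) fell in both, and PPP1R13L rose in HT29 (0.58). Between the untreated lines 1 was higher (DAXX, 0.34) and 2 lower (CHEK2, -0.50, and ATM, -0.33) in HTOXAR3, beside 6.26% and 5.28% of all gene names, and the lines' responses differed for 0 of 18 by limma, with 1 at an unadjusted p under 0.05 after OXA (13.7% of all gene names) and 3 after both drugs (14.4%).

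Of 32 further p53 targets outside the 33, 7 rose and 4 fell after OXA in HT29 (8.33% and 7.62% of all gene names), and 9 rose and 2 fell in HTOXAR3 (5.31% and 4.94%). BBC3, which encodes the apoptosis inducer PUMA, fell in both (-1.27 and -1.16), and the transcription factor KLF4 rose (1.08 and 1.18). In HT29 the chaperone HSPA4L fell (-0.95) and TP53AIP1, a mitochondrial apoptosis protein, rose (0.77), and in HTOXAR3 TNFRSF10D, a decoy receptor for TRAIL, and the cytokine LIF rose (0.75 and 0.74). Adding Curcumin raised 5 and lowered 1 in HT29 (3.14% and 2.39%) and raised 3 and lowered 5 in HTOXAR3 (4.43% and 4.41%). TNFRSF10D rose most in both (1.10 and 1.06), with the superoxide dismutase SOD2 (0.82 and 0.59) and SESN2 (0.56 and 0.51). BBC3 rose in HT29 (0.58), and the death receptor FAS fell in HTOXAR3 (-0.52). After both drugs 9 rose and 8 fell in HT29 (9.56% and 9.02%) and 9 rose and 7 fell in HTOXAR3 (8.82% and 8.64%), with TNFRSF10D up by 1.49 and 1.80 and KLF4 by 0.99 and 1.38. SOD2 rose (0.92) and HSPA4L fell (-0.91) in HT29, and SESN2 (1.08) and LIF (0.91) rose in HTOXAR3. Untreated HTOXAR3 had 2 higher (S100A2, 0.77, and POLH, 0.44) and 1 lower (TNFRSF10B, -0.47), beside 6.26% and 5.28% of all gene names. The difference of the OXA responses, HTOXAR3 minus HT29, was called above 0 for 3, FAS (0.76), HSPA4L (0.70) and PMAIP1, which encodes NOXA (0.62). That of the responses to both drugs was called above 0 for 1, HSPA4L (0.62), beside 0.608% and 0.32% of all gene names. HSPA4L fell in HT29 under both treatments (-0.95 and -0.91), so that its differences are not larger rises in HTOXAR3. The alternatives were not run for these further targets.

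Some of the 33 are also induced in stress by ATF4 and stress kinases, and 15 genes of those pathways were counted for comparison. After OXA 4 rose and 5 fell in HT29 (8.33% and 7.62% of all gene names) and 2 rose and 4 fell in HTOXAR3 (5.31% and 4.94%). HMOX1, heme oxygenase, fell (-1.97 and -1.86), as did ASNS, asparagine synthetase (-1.53 and -1.09), and DDIT4, an inhibitor of mTORC1 (-1.37 and -0.94), while DDIT3, which encodes CHOP, rose (1.64 and 1.42). Adding Curcumin raised 6 and lowered 0 in HT29 (3.14% and 2.39%) and raised 8 and lowered 0 in HTOXAR3 (4.43% and 4.41%), among them HMOX1 (2.89 and 3.06), DDIT4 (1.85 and 1.32) and CHAC1, which degrades glutathione (1.34 and 1.06). Curcumin also raised DDIT3 in HT29 (1.04) and ASNS in HTOXAR3 (1.16). After both drugs 8 rose and 2 fell in HT29 (9.56% and 9.02%) and 6 rose and 0 fell in HTOXAR3 (8.82% and 8.64%), led by DDIT3 (2.67 and 2.19). The eIF2α phosphatase subunit PPP1R15A rose in both (1.51 and 1.82), with the transcription factor ATF3 (1.60) and the pseudokinase TRIB3 (0.99) in HT29 and HMOX1 (1.21) and CHAC1 (1.02) in HTOXAR3. Between the untreated lines 1 was higher (HMOX1, 0.69) and 2 lower (FOS, -0.65, and ASNS, -0.55), beside 6.26% and 5.28% of all gene names, and the lines' responses differed for 0 after OXA by limma, with 8 of 15 at an unadjusted p under 0.05 (13.7% of all gene names), and for 1 after both drugs (ASNS, 0.60, beside 0.32% of all gene names called higher). Their part in the changes of the 33 was not tested.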

How the data were processed

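Total RNA had been labelled with Cy3 and hybridised to one-colour Agilent human arrays, which were scanned and read with Feature Extraction 10.7.3.1. The authors deposited for each array the mean intensity of each spot and the intensity of its local background, without normalization between arrays, and an intensity processed by Feature Extraction. They named limma in their processing notes, with no version. Log2 values processed by the authors were deposited too, in lines without gene names, and were not used.

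The mean intensity was corrected with normexp (offset 0) and quantile normalized to log2 values, as in the study's methods, which name no offset. After normexp the control spots were dropped, outlier spots became missing, and spots of 1 probe were averaged. A gene with several probes was read from the one brightest on average. The 33 members had 47 probes, with 12 members on more than 1. The 50599 probes carried 36204 gene names. Positions of probes come from the Agilent annotation (GRCh37), and promoters are from RefSeq on GRCh38.p14, where 27 members were found. A probe not well above background in a whole group gives only a bound, taken from the lowest signal among probes well above background on each array. The number of arrays limits the precision.

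A model with 6 group terms was fitted to all 18 arrays with limma 3.58.1 in R 4.3.3 (data.table package, version 1.17.8), with figures in Python 3.11.15 (matplotlib 3.10.9). P-values were adjusted by Benjamini-Yekutieli over all names, called at 0.05 with a change above 1.2-fold. The fit was tested on simulated data with known changes. The 95% intervals are those of the fit. No pair of arrays correlated above 0.995. The labels number the replicates but name no shared batch. Deviations of same-numbered arrays correlated above 0.1 in every pair only after OXA in HT29 (0.118 to 0.241) and on adding Curcumin in HTOXAR3 (0.108 to 0.194), so only there were the numbers taken to pair the arrays. Only in these comparisons did every same-numbered pair also share a slide, so that a pairing of replicates and a shared slide cannot be told apart. P-values measure the spread between these arrays, which may be partly technical.

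The members and lists were chosen with earlier results of these data known. Named genes were each member called in a comparison, MDM2 and CDKN1A in each comparison, MDM4 once, and up to 4 called genes with the largest change from each other list. Of the marker lists only some of those genes are given, and 1 gene that the rule also names is not reported here. Members that were not called are named for completeness, and the markers and promoters shown were chosen after the values were seen. Alternatives were an offset of 50, the processed intensity scaled to its 75th percentile, the Benjamini-Hochberg adjustment, the mean over a gene's probes, detected names only, only the groups compared, the replicate number or the slide as a block, and leaving out each array. Leaving out the slide of 2 arrays was chosen after seeing the data.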

Additional observations from a re-analysis of the deposited data

Results flagged for a closer look

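The response of GADD45A to OXA differed between the lines by 0.82 on the log2 scale (HTOXAR3 minus HT29, SE 0.12, limma adjusted p = 0.0192), and that of PLK3 by 0.64 (SE 0.09, adjusted p = 0.0127), by the interaction of line and treatment. GADD45A fell by 0.83 in HT29 and gave -0.01 in HTOXAR3. PLK3 fell by 0.36 in HT29 and gave 0.28 in HTOXAR3. The GADD45A difference was lost with the slide as a block (0.80, adjusted p = 0.0503) and without any of 9 of 12 arrays (adjusted p 0.0513 to 0.0765), and that of PLK3 without any of 4 of 12 (0.0511 to 0.0543). Without the slide of 2 arrays (the first untreated and first OXA arrays of HT29) neither passed (adjusted p = 0.161 and 0.0656). The doses also differed, 10 µM OXA in HT29 and 30 µM in HTOXAR3, so that line and dose cannot be told apart.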

How the results depend on the processing

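No called log2 difference of the 33 genes changed direction under any alternative. Fitted on only the groups compared, which leaves fewer arrays, the members called were 4 between the untreated lines, 3 after OXA in HT29, 3 after OXA in HTOXAR3, 1 on adding Curcumin in HT29, 1 on adding Curcumin in HTOXAR3, 3 after OXA plus Curcumin in HT29 and 11 in HTOXAR3, and 0 for the line difference of the OXA response. For that line difference the same fit called 0.597% of all gene names. It gave 4 members with the Benjamini-Hochberg adjustment (3% of all gene names) and 1 with the slide as a block (0.994%). Without the slide of 2 arrays (the first untreated and first OXA arrays of HT29) it gave 0 (0.641%), and with 1 array left out 0 to 2. The line difference of the response to both drugs gave 3 with an offset of 50 (1.81% of all gene names) and 7 with the Benjamini-Hochberg adjustment (3.44%). It gave 1 with a gene's probes averaged (0.66%) and 3 among detected names only (2.76% of those). With each array left out in turn, the members called were 8 to 10 between the untreated lines, 10 to 12 after OXA in HT29, 8 to 9 in HTOXAR3, 4 to 6 on adding Curcumin in HT29, 8 in every case in HTOXAR3, 12 to 15 after both drugs in HT29, 16 to 18 in HTOXAR3, and 0 for the line difference of that response.

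With the replicate number as a block, 82 of 86 calls were kept. The calls lost were IER5 between the untreated lines (adjusted p = 0.0702), SFN (0.0531) and IER5 (0.0586) on adding Curcumin in HT29, and PLK3 after both drugs in HT29 (0.0691). None of these is in a comparison where the numbers were taken to pair the arrays. There the block added ASCC3, lower after OXA in HT29 (adjusted p = 0.0274), where the numbers also follow the slides. With the slide as a block 81 of 86 calls were kept (lost were IER5 between the untreated lines, SFN and IER5 on adding Curcumin in HT29, TP53INP1 after both drugs in HT29 and the line difference of GADD45A after OXA), and within each of the slides that hold all groups every called member had the same direction. Without the slide of 2 arrays 68 of 86 were kept. In HT29 5 members were then called higher and 3 lower after OXA (6.09% and 5.59% of all gene names), and 9 and 2 after both drugs (8.13% and 7.85%). The processed intensity kept 78 of 86, with the median of all names at -0.10 after OXA and -0.15 after both drugs in HT29, and -0.19 for each in HTOXAR3. It gave 10 higher and 3 lower after OXA in HTOXAR3 (5.94% and 5.81% of all gene names), against 7 and 4 (5.31% and 4.94%). In HT29 it gave 6 and 4 (8.42% and 8.42%), against 8 and 4 (8.33% and 7.62%). The cause of these changes was not tested. Precision was limited by 3 arrays per group.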
